A study of Mus musculus with 12 samples.

Results

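Klf4, Nr4a3, Tgfbr1 and Abca1 are 4 protein-coding genes of myeloid cell regulation that share a stretch of mouse chromosome 4, and their levels were compared between serum RNA of normal mice and of mice with colorectal cancer. They were taken by name, without use of their values, as the 4 rows so named among the 53546 gene rows of each count file. All 4 were found, and all 4 passed the filter on low counts that left 9565 rows for testing. The labels give 6 normal and 6 colorectal cancer serum samples, each called a biological replicate; the sources used here give no strain, age, sex or origin of the cancer. The files of colorectal cancer replicates 5 and 6 were identical in every row. The column header of both carries the word Blood and the number 6, so they were counted once as replicate 6. This left 11 libraries, 6 normal and 5 colorectal cancer. Nothing in the labels says how the replicates were kept apart, so p-values measure the spread between these samples.

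Klf4 is a zinc finger transcription factor of the Krüppel-like family that promotes monocyte differentiation. Nr4a3 is an orphan nuclear receptor of the NR4A family, an immediate early gene whose transcription is induced quickly by many stimuli, and with Nr4a1 it restrains the growth of myeloid precursors. Tgfbr1 encodes the type I receptor kinase of TGF-beta, which is recruited by the type II receptor and phosphorylates Smad2 and Smad3. Abca1 encodes the transporter that moves cholesterol and phospholipid out of cells, macrophages among them, onto lipid-poor apolipoprotein A-I, and is a classical target of the liver X receptors.

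In the annotation of the mm10 build (GENCODE release M21), Tgfbr1 spans chr4:47353222-47414931 on the plus strand, Nr4a3 chr4:48045153-48086447 on the plus strand, Abca1 chr4:53030787-53159895 on the minus strand and Klf4 chr4:55527143-55532466 on the minus strand. Their merged exons measure 6534, 5987, 10363 and 3049 bases in that order. No annotated gene overlaps any of them (0 overlaps), so none has an annotated partner on either strand.

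The promoters of Nr4a3, Klf4 and Tgfbr1 are shown because the ratio of Nr4a3 to the other two separated the groups, as described further down. They are RefSeq promoters of the GRCm38.p6 assembly, 250 bases before to 50 after the start site, read in the direction of the gene, and all 4 genes matched the table. Capitals mark the core of the cyclic AMP response element (TGACG or its reverse complement CGTCA) and the GC box (GGGCGG or its reverse complement CCGCCC), the element read by Sp and Krüppel-like factors.

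Nr4a3, chr4:48045055-48045354, plus strand: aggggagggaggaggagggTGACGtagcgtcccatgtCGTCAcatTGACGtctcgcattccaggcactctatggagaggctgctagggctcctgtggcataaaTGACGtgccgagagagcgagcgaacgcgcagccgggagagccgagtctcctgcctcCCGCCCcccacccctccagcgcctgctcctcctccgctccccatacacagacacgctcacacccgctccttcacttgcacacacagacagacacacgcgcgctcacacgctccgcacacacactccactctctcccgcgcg

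Klf4, chr4:55532426-55532725, minus strand: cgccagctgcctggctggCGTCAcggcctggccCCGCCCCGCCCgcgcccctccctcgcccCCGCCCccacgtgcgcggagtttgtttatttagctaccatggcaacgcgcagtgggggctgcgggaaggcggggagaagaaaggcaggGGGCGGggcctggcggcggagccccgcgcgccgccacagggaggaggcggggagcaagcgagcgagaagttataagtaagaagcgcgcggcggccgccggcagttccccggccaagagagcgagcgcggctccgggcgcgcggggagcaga

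Tgfbr1, chr4:47352972-47353271, plus strand: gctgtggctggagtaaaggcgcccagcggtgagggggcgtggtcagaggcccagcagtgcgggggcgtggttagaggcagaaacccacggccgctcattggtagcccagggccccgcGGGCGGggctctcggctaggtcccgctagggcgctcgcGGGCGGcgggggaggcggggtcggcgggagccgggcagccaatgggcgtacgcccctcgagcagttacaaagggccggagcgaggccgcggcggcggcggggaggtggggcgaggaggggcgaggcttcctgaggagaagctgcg

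The Nr4a3 promoter held the core TGACG 4 times over both strands, with first bases at -231, -213, -205 and -147 from the start, and the GC box once. At least 4 such cores, a cut equal to the count in Nr4a3 itself, occurred in 0.231% of 32851 promoters of the same length, and at least 1 in 20.8%. These shares are not matched for base content: G and C made up 64.7% of the Nr4a3, 74.3% of the Klf4 and 74.7% of the Tgfbr1 promoter shown. The median over all promoters was 52.7%. The Klf4 promoter held 1 such core and 4 GC boxes, of which a pair overlap by their last and first base; at least 4 GC boxes occurred in 5.49% of promoters. The Tgfbr1 promoter held 2 GC boxes and no such core. At least 2 GC boxes occurred in 19.5% of promoters, and at least 1 in 35.7%. Abca1, whose promoter lies at chr4:53159846-53160145, held 2 GC boxes, an E-box (CACGTG, in 7.15% of promoters) and TATAAA 29 bases before its start (in 13.6%). The E-box was also found once in the Klf4 promoter. The complete element TGACGTCA (1.79% of promoters), the SMAD element GTCTAGAC (0.213%), the NR4A element AAAGGTCA (1.51%) and the liver X receptor element DR4 (0.134%) did not match in any of the 4. The KLF box CACCC, present in 57.5% of promoters, matched 3 times in Nr4a3, and CCAAT, present in 37.4%, matched 2 times in Tgfbr1. A match here is a match of letters and is not known to be a bound site. Near forms that differ from a pattern in a letter were not counted. The lack of a DR4 match therefore does not show that the Abca1 promoter lacks a liver X receptor element. The RefSeq start of Nr4a3 lies 152 bases downstream of the one in GENCODE and that of Klf4 9 bases upstream, while those of Tgfbr1 and Abca1 coincide. A further Tgfbr1 start in the table, 32994 bases downstream, is not shown.

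Library totals ran from 2889205 to 20774889 counts. The row Olfr648 takes up most of a library where it is high: 2 normal and 4 colorectal cancer libraries had 7969078 to 17324370 counts in it, and the remaining 5 libraries had 3247 to 5150. Without it the totals were 2885958 to 7033966, and they were 2885958 to 4089488 in normal and 3727908 to 7033966 in colorectal cancer. Values below are TMM-scaled CPM, a normalised read count: counts relative to the library size after scaling with TMM, which sets the typical row equal between libraries. Whether a row measures the gene of its name is not established for these files, in which 42.2% of protein-coding rows stood at 0 in all libraries. Between 47 and 56 Mb of chromosome 4, where the 4 genes lie, this share was 11.6% (5 of 43 rows).

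None of the 4 genes passed the test between the groups by the quasi-likelihood test of edgeR, adjusted over 9565 rows after Benjamini and Hochberg (0 of 4 at an adjusted p under 0.05, where 2.02% of all tested rows were called, and 1 of 4 at an unadjusted p under 0.05). In 0 of 4 were the groups without overlap, as they were in 3.64% of all tested rows. Nr4a3 came nearest, at 0.667-fold of its normal level in colorectal cancer. Klf4 and Tgfbr1 stood at 1.13-fold and 1.02-fold of theirs, neither past the test, and Abca1 had a lower mean in colorectal cancer with a wide spread. DESeq2 called Nr4a3 lower, alone of the 4 (adjusted p = 0.0386, log2 fold change -0.59, SE 0.19); it called 4.18% of all tested rows, 2.49% lower and 1.69% higher.

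Klf4 stood at 67.2 TMM-scaled CPM in the lowest normal library, 101.9 at the median and 137 in the highest. In colorectal cancer replicates 1, 2, 3, 4 and 6 it stood at 118, 100.7, 105, 102 and 143. Only replicate 6 lay above the highest normal library, and the groups overlapped. The means were 100.9 ± 23.9 in normal and 114 ± 17.8 in colorectal cancer serum (SD, n = 6 and 5), a log2 fold change of 0.17 (SE 0.16). By edgeR the adjusted p was 0.822, and the 95% interval of the fold, 0.884 to 1.44, leaves room for a change in either direction.

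Nr4a3 was the lowest of the 4, at 12.7, 19.0 and 22.7 TMM-scaled CPM in the lowest, median and highest normal library. In colorectal cancer replicates 1, 2, 3, 4 and 6 it stood at 12.5, 12.7, 14.0, 11.7 and 9.30. All 5 values lay under the normal median, and 3 of them under the lowest normal library, but normal replicate 5 (12.7) lay inside the cancer range, and normal replicate 1 (14.7) stood just above its highest value. The means were 18.1 ± 3.78 in normal and 12.0 ± 1.74 in colorectal cancer serum (SD, n = 6 and 5), a log2 fold change of -0.58 (SE 0.18). Its unadjusted p by edgeR was 0.00553 and its adjusted p 0.144, so the difference did not pass; among all tested rows 5.65% had an unadjusted p under 0.05 in this direction. These values rest on 76 to 211 counts per library, and the 76 counts of normal replicate 1 have an exact Poisson 95% interval of 59.9 to 95.1, which covers counting error only. Among libraries with high Olfr648 counts the means were 19.0 in 2 normal and 11.6 in 4 colorectal cancer libraries, and among the others 17.6 in 4 normal libraries and 14.0 in the single colorectal cancer one.

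Tgfbr1 had the steadiest level of the 4. It stood at 163, 203 and 236 TMM-scaled CPM in the lowest, median and highest normal library, and at 197, 208, 190, 203 and 227 in colorectal cancer replicates 1, 2, 3, 4 and 6. Every colorectal cancer value fell inside the normal range. The means were 200.4 ± 26.6 and 205 ± 14.0 (SD, n = 6 and 5), a log2 fold change of 0.03 (SE 0.10; adjusted p = 0.959 by edgeR). The 95% interval of the fold ran from 0.879 to 1.19, the narrowest of the 4, and its coefficient of variation was 13.3% in normal and 6.83% in colorectal cancer serum.

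Abca1 had the highest count of the 4, at 199.9, 274 and 326 TMM-scaled CPM in the lowest, median and highest normal library. In colorectal cancer replicates 1, 2, 3, 4 and 6 it stood at 222, 210.4, 184, 337 and 214. A single cancer library, replicate 4, lay above every normal one, replicate 3 lay below every normal one, and the remaining 3 were inside the normal range and below its median. The means were 276 ± 47.9 and 233 ± 59.6 (SD, n = 6 and 5), a log2 fold change of -0.24 (SE 0.16; adjusted p = 0.694 by edgeR, 95% interval of the fold 0.662 to 1.08). Without colorectal cancer replicate 4 the log2 fold change was -0.41 (SE 0.14, adjusted p = 0.236 by edgeR). Among the 6 libraries with high Olfr648 counts it was 0.02, so the sign was not kept there.

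**Figure D1:**
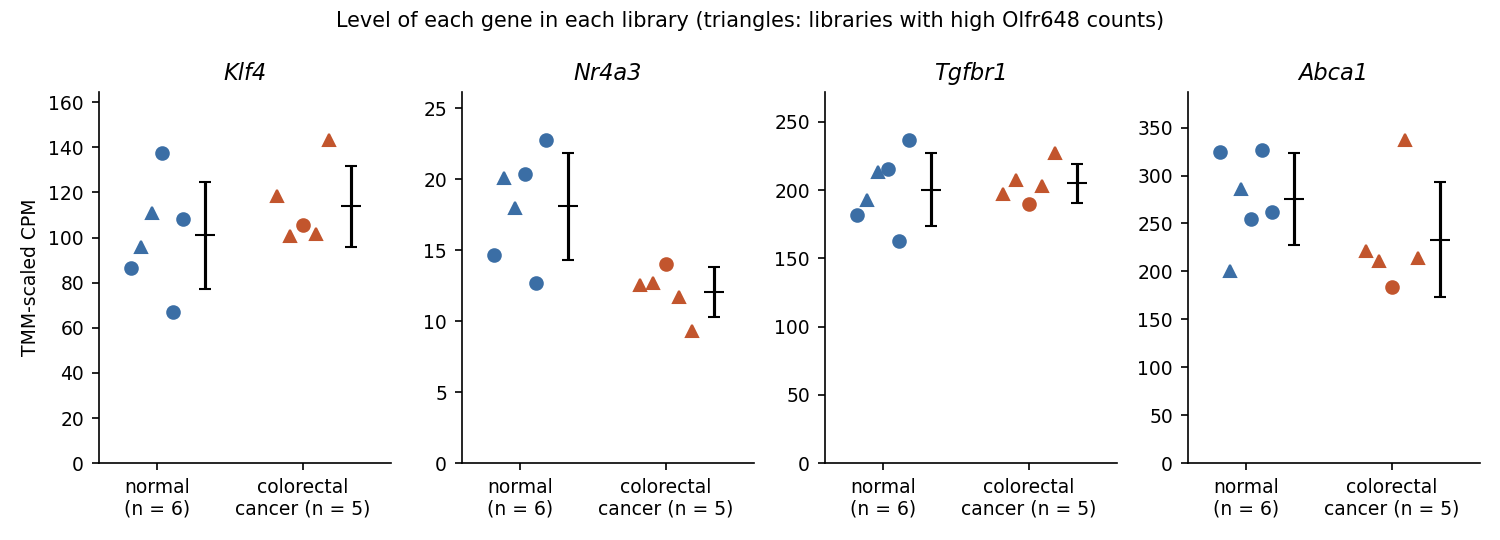
TMM-scaled CPM of Klf4, Nr4a3, Tgfbr1 and Abca1 (vertical axes, from 0) in each of the 6 normal and 5 colorectal cancer libraries; crosses with bars are means and SD, and triangles are libraries with high Olfr648 counts. The groups overlap in every panel, and all 5 colorectal cancer values of Nr4a3 lie under 14.1.

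Per kilobase of merged exon, the scale on which genes can be compared with each other, Klf4 was at 33.1 ± 7.83, Tgfbr1 at 30.7 ± 4.07, Abca1 at 26.6 ± 4.62 and Nr4a3 at 3.02 ± 0.632 CPM per kb in normal serum (SD, n = 6). In colorectal cancer serum the levels were 37.3 ± 5.84, 31.4 ± 2.14, 22.5 ± 5.75 and 2.01 ± 0.291 in the same order (SD, n = 5). The order Klf4, Tgfbr1, Abca1, Nr4a3 held in 7 of 11 libraries. In normal serum Klf4 was above Tgfbr1 in 4 of 6 libraries, with a mean log2 ratio per kb of 0.09 (SD 0.21), and Tgfbr1 above Abca1 in 4 of 6 (0.21, SD 0.39), neither beyond its spread. In colorectal cancer serum Klf4 was above Tgfbr1 in 5 of 5 (0.24, SD 0.16) and Tgfbr1 above Abca1 in 4 of 5 (0.51, SD 0.33). Nr4a3 was the lowest of the 4 in all 11 libraries.

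The scaling moved all 4 genes together and changed the sign of Abca1. When totals alone were used, after removal of the Olfr648 row, the median log2 fold change of all tested rows moved from 0.04 to 0.43, and 93.3% of calls were higher against 28.0% in the main fit. On that scale Klf4 (log2 fold change 0.58, adjusted p = 0.0212) and Tgfbr1 (0.44, adjusted p = 0.00927) passed edgeR's test as higher in colorectal cancer, Abca1 turned to 0.17 and Nr4a3 stood at -0.18. As CPM of that total, Tgfbr1 ran from 311 to 371 in normal and from 403 to 518 in colorectal cancer serum, and Nr4a3 from 24.9 to 36.2 and from 21.2 to 30.0. Relative to the median of all rows the 4 genes moved little between the scalings: Klf4 stood 0.14 above it in the main fit and 0.16 with totals alone, Tgfbr1 -0.01 and 0.02, Abca1 -0.28 and -0.26, and Nr4a3 -0.62 and -0.60.

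**Figure D2:**
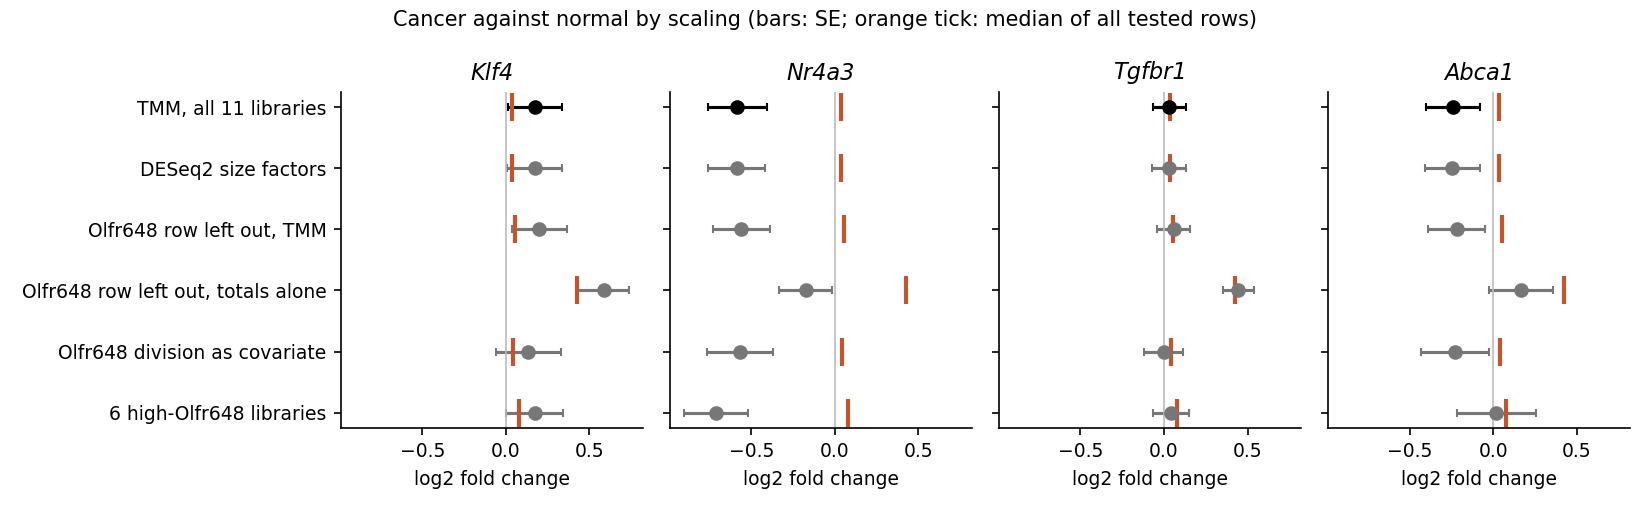
Log2 fold change of colorectal cancer against normal (horizontal axis) for each gene under 6 ways of scaling or choosing libraries; bars are SE and orange ticks the median of all tested rows in the same fit. Under totals alone the tick moves to 0.43 and each gene moves with it, and Nr4a3 stays left of the tick in all 6.

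Ratios between 2 genes of a library do not depend on any scaling, and these were computed after the values above had been seen. Nr4a3 divided by Klf4 was 0.148 to 0.210 in normal serum (median 0.179). In colorectal cancer replicates 1, 2, 3, 4 and 6 the same ratio was 0.106, 0.126, 0.133, 0.115 and 0.0650. Every colorectal cancer library lay below every normal one, a mean log2 difference of -0.76 (SD of the log2 ratio 0.206 in normal and 0.413 in colorectal cancer, n = 6 and 5). The two-sided exact permutation p was 0.00433, the smallest that 462 arrangements can give, and 0.0130 adjusted over the 6 ratios. With Klf4 as the divisor 2.07% of tested rows lay below in every colorectal cancer library.

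Nr4a3 divided by Tgfbr1 was 0.0778 to 0.104 in normal serum (median 0.0893). In colorectal cancer replicates 1, 2, 3, 4 and 6 it was 0.0635, 0.0611, 0.0738, 0.0577 and 0.0410, again without overlap. The mean log2 difference was -0.61 (SD of the log2 ratio 0.164 and 0.314, n = 6 and 5; two-sided exact permutation p = 0.00433, adjusted 0.0130), and 1.90% of all tested rows were parted downward with Tgfbr1 as the divisor. Ratios parted over all 11 libraries are necessarily parted in any subset of them. The lack of overlap among the 6 libraries with high Olfr648 counts (2 normal, 4 colorectal cancer) and among the other 5 (4 normal, 1 colorectal cancer) therefore adds no support. Within the 6 alone the exact permutation p was 0.133 for each, the smallest that 2 against 4 libraries can give. A parted ratio does not tell which of its genes differed. Both parted ratios hold Nr4a3, and their divisors Klf4 and Tgfbr1 were correlated (r = 0.811), so they are not independent results. As the ratios were added after the values had been seen, chance is not excluded.

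The other ratios overlapped between the groups. Klf4 divided by Tgfbr1 was 0.413 to 0.637 in normal and 0.485 to 0.631 in colorectal cancer serum (log2 difference 0.15, adjusted p = 0.255 by exact permutation test). Nr4a3 divided by Abca1 was 0.0388 to 0.1003 and 0.0348 to 0.0762 (log2 difference -0.32, adjusted p = 0.320 by exact permutation test). Klf4 divided by Abca1 and Abca1 divided by Tgfbr1 had log2 differences of 0.45 and -0.29 and an adjusted p of 0.255 each by the same exact permutation test.

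**Figure D3:**
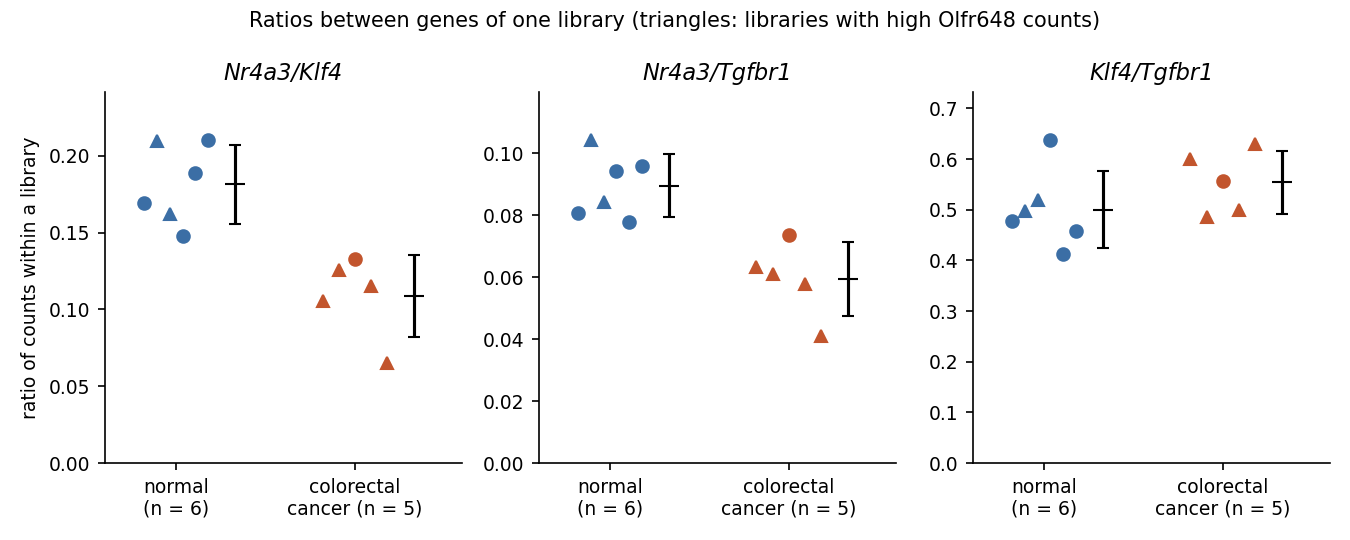
Ratio of counts within each library (vertical axes, from 0) for Nr4a3/Klf4, Nr4a3/Tgfbr1 and Klf4/Tgfbr1; crosses with bars are means and SD, triangles are libraries with high Olfr648 counts. All 5 colorectal cancer libraries lie under the 6 normal ones in both Nr4a3 panels, and the groups mix in the Klf4/Tgfbr1 panel.

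Across the 11 libraries Klf4 and Tgfbr1 varied together. The correlation of their log2 levels was r = 0.811 (permutation p = 0.00271, adjusted 0.0163 over 6 pairs), with Spearman's rho = 0.755 (permutation p = 0.0103, adjusted 0.062). Without the libraries farthest from the Klf4 median, normal replicate 5 and colorectal cancer replicate 6, r was 0.54, so part of the relation rests on those 2. Computed on deviations from the group means r was 0.82, and within the 6 libraries with high Olfr648 counts 0.748. Leaving out normal replicate 1 (adjusted permutation p = 0.0646), normal replicate 5 (0.269) or colorectal cancer replicate 6 (0.07) ended the call. Both values of a library share its scaling factor, and of 2956 other rows compared 1.66% followed Klf4 more closely than Tgfbr1 did, while 2 rows followed Tgfbr1 more closely than Klf4 did. The other 5 pairs had r between -0.451 (Klf4 and Abca1) and 0.229 (Nr4a3 and Tgfbr1), with adjusted permutation p of 0.498 or more, rho between -0.245 and 0.209, and an adjusted permutation p of 0.883 for each rho. For these 5 pairs r without the 2 farthest libraries lay between -0.218 and 0.362, and Klf4 with Nr4a3 gave 0.264 in this way and -0.671 within the high libraries.

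The rows most like each gene over the 11 libraries were sought by Pearson's r of log2 levels (a pseudocount of 0.5 CPM for the rows compared), as a description. The 2956 rows searched had a mean of 10 CPM or more, and rows named as clones or predicted genes and the 4 genes themselves were left out; of the 4, Klf4 (0.811) would stand before the last of the rows given for Tgfbr1. Klf4 was followed most closely by Arhgap30 (r = 0.937), Suv39h2 (0.924) and Pcnx3 (0.911). Nr4a3 was followed by Klhl30 (0.92), Nat8f2 (0.891) and Ap2b1 (0.891), and of these Ap2b1, an adaptor protein subunit of clathrin coats, was lower in colorectal cancer past the threshold (116 ± 27.0 to 62.6 ± 19.5 CPM; adjusted p = 0.0429 by edgeR). The Ap2b1 call was lost without any one of normal replicates 1, 2, 3, 4 and 6 or colorectal cancer replicates 1, 2, 4 and 6 (adjusted p up to 0.132 by edgeR). The rows given for Nr4a3 were picked over both groups together, and Nr4a3 itself had a lower mean in colorectal cancer. A lower level in them is therefore partly built into the choice. Tgfbr1 was followed by Adgrg3 (0.86), Smarcc1 (0.849) and Proz (0.795), and Abca1 by Lingo3 (0.903), Tkfc (0.893) and Bmpr2 (0.846). The 4 genes apart, none of these 12 rows lies on chromosome 4.

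The 30 other tested rows between 47 and 56 Mb of chromosome 4 gave no call by edgeR's quasi-likelihood test (0 higher and 0 lower; background 2.02%). At an unadjusted p under 0.05 2 of them lay higher and 2 lower, against 5.72% and 5.65% of all tested rows. Their median log2 fold change was 0.15, against 0.04 over all tested rows, and 17 of the 30 were above 0. By DESeq2 the 30 rows gave 0 calls as well, where it called 4.18% of all tested rows.

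**Figure D4:**
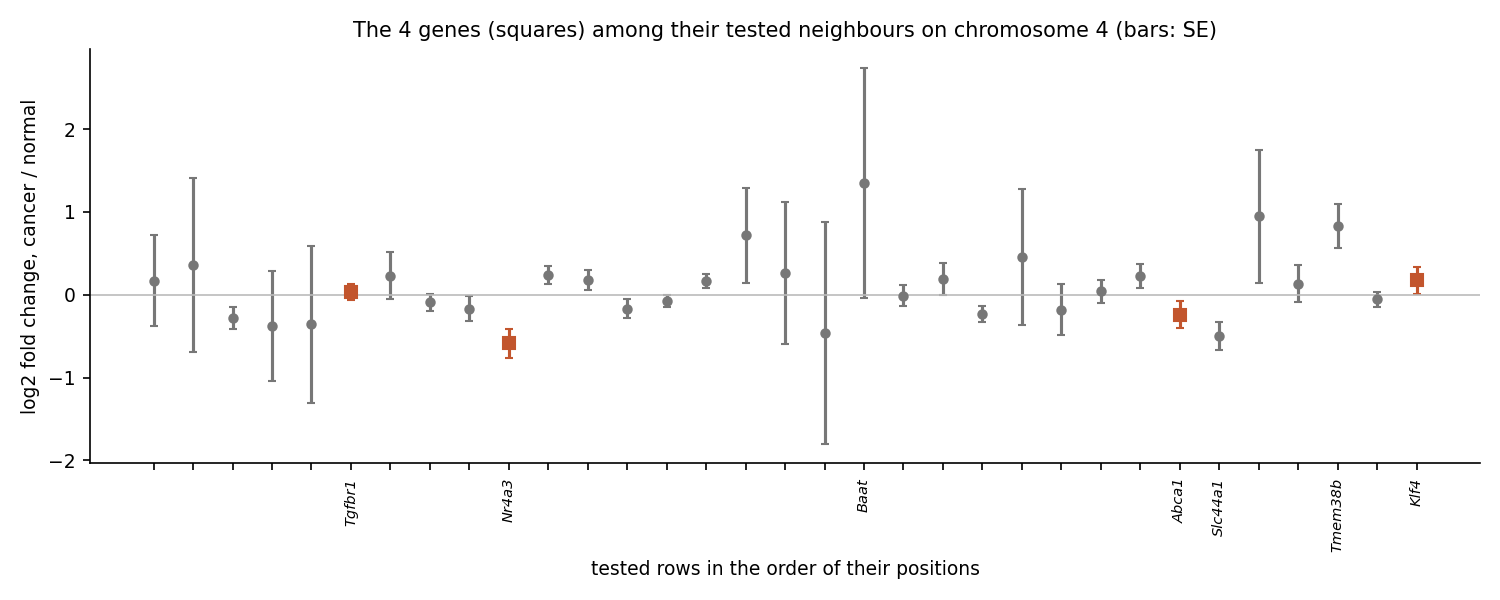
Log2 fold change with SE (vertical axis) of the 34 tested rows between 47 and 56 Mb of chromosome 4, in the order of their positions, of which 1 is not shown; squares are Klf4, Nr4a3, Tgfbr1 and Abca1. No row passed the test, and rows with long bars, such as Baat, have low or uneven counts.

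The pathways around each gene were read from lists that lie mostly on other chromosomes, where more rows are at 0. Of 39 monocyte and macrophage regulators and markers, 13 had no count in any library and 8 were tested. Of the 8, 1 was higher, 0 lower and 7 did not pass (background 0.565% higher). The one that passed was Adgre4, an adhesion receptor of monocytes, at 13.7 ± 0.967 in normal and 20.8 ± 3.31 CPM in colorectal cancer serum (adjusted p = 0.0385 by edgeR). Its call was lost on leaving out any one of normal replicates 1, 2, 3, 5 and 6 and colorectal cancer replicates 1, 2, 4 and 6 (adjusted p up to 0.115 by edgeR). The median log2 fold change of the 8 was 0.19. Spi1, Cebpb and Irf8, transcription factors that act beside Klf4 in monocyte formation, were under the filter on low counts, and Csf1r and Ccr2 were at 0.

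Of 42 genes of TGF-beta and SMAD signalling 18 were tested and 0 passed in either direction (2 at an unadjusted p under 0.05, both higher, by edgeR, against 5.72% of all tested rows; 0 by DESeq2). Their median log2 fold change was 0.09. Of the 42, 16 were at 0 in all libraries, where 42.2% of all protein-coding rows were. The partner receptor Tgfbr2 and the receptor substrate Smad2 were among them. The other substrate, Smad3, was tested, at 2.45 ± 1.78 in normal and 2.54 ± 1.45 CPM in colorectal cancer serum (adjusted p = 0.992 by edgeR). The most abundant were Ltbp3, which binds latent TGF-beta, at 635 ± 130 in normal and 683 ± 77.5 CPM in colorectal cancer serum, and Id3, an inhibitor of helix-loop-helix factors, at 164 ± 17.8 and 184 ± 14.3 CPM.

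Of 33 genes of cholesterol efflux, liver X receptors and sterol supply 12 were tested and 0 passed by edgeR or DESeq2. Their median log2 fold change was 0.22. At an unadjusted p under 0.05 by edgeR 1 was higher, against 5.72% of all tested rows. The receptor gene Nr1h2 and the cholesterol synthesis genes Hmgcs1, Sqle and Cyp51 were at 0 in all libraries. The other liver X receptor gene, Nr1h3, had uneven counts and did not pass the filter. It stood at 7.84 ± 19.2 in normal and 22.7 ± 20.7 CPM in colorectal cancer serum. The most abundant was Lss, lanosterol synthase, at 34.6 ± 6.80 and 32.1 ± 4.10 CPM. Abcg1, the transporter that loads cholesterol onto mature HDL, falls outside the naming rule and stood at 7.16 ± 3.48 and 6.69 ± 1.48 CPM.

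Of 18 other Krüppel-like and NR4A genes 7 were tested and 0 passed by edgeR or DESeq2, with a median log2 fold change of -0.10. At an unadjusted p under 0.05 by edgeR 1 was higher and 1 lower, against 5.72% and 5.65% of all tested rows. Klf10, which is induced by TGF-beta, stood at 65.9 ± 21.1 in normal and 101 ± 24.7 CPM in colorectal cancer serum (adjusted p = 0.247 by edgeR). Klf16 stood at 65.8 ± 10.5 and 54.2 ± 2.43 CPM (adjusted p = 0.336 by edgeR). Nr4a2 was at 0 in all libraries and Nr4a1 under the filter, so the rows give no tested relative of Nr4a3 in its own family.

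**Figure D5:**
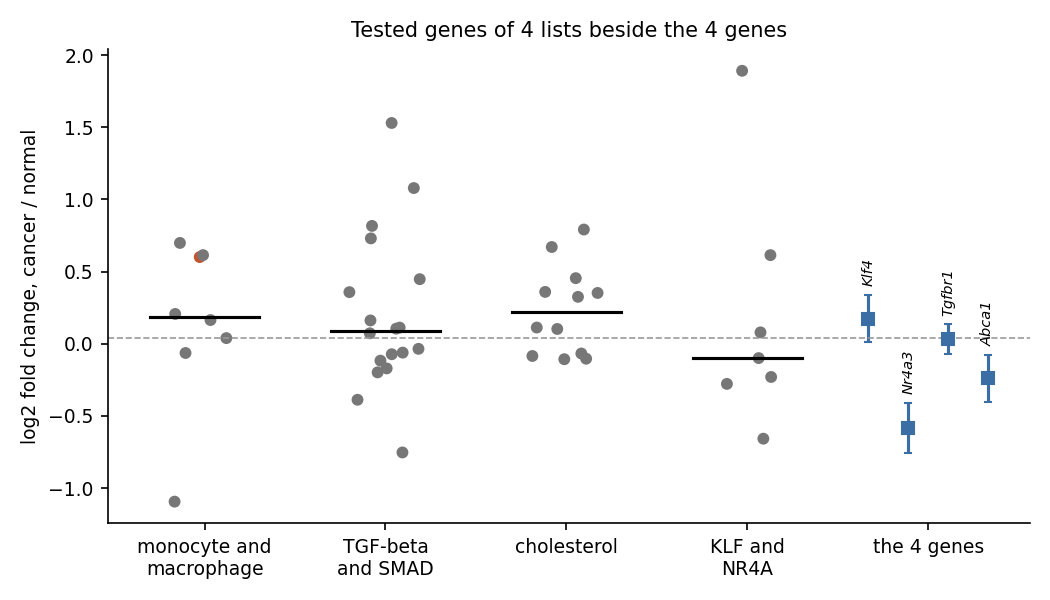
Log2 fold change of every tested gene of 4 lists (points; orange, past the threshold; black lines, list medians) beside the 4 genes with SE (squares); the dashed line is the median of all tested rows, 0.04. The list medians run from -0.10 to 0.22, and Nr4a3 lies at -0.58.

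Summed marker rows of several blood cell types differed between the groups, and their part in the values of the 4 genes was not tested. A sum follows its most abundant rows, so its difference is not one of the whole list. By mean CPM over the 11 libraries these were Mmp8 (366) for neutrophils and Cd3e (294) for T cells. They were Gng11 (2836) and Itga2b (649) for platelets, and Tspan33 (329) and Tmod1 (129.5) for erythroid cells. For monocytes they were Adgre4 (16.9) and Ly6c2 (8.99). No background share is given for sums. The number of cells of a type and the RNA per cell cannot be told apart in these samples, in either direction. Other causes were not tested. The summed level of 12 monocyte markers was 17.9 to 27.7 CPM in normal and 28.7 to 38.7 in colorectal cancer serum, with 4 of the 12 at 0 (Csf1r, Ccr2, Ms4a7 and Mpeg1) and 1 of 3 tested called higher, Adgre4. That of 14 neutrophil markers was 99.5 to 378 and 408 to 714, with 9 at 0, S100a8, S100a9 and Csf3r among them, and 0 of 2 tested called by edgeR (1 at an unadjusted p under 0.05, and 1 called by DESeq2: Mmp8, a neutrophil collagenase, at 206 ± 119 and 558 ± 120 CPM). Single rows with every colorectal cancer library above every normal one made up 1.54% of those tested. The summed markers of 3 other cell types lay lower in colorectal cancer without overlap. The 16 erythroid markers summed to 535 to 925 and 126 to 332, with 4 at 0 (both adult beta-globin rows and Alas2 among them) and 3 of 8 tested called lower, Hemgn, Tspan33 and Tmod1; Tmod1 lost its call without colorectal cancer replicate 1, 4 or 6 (adjusted p up to 0.0617 by edgeR). The 14 platelet markers summed to 3794 to 6034 and 2111 to 3108, with 8 at 0, Pf4 and Ppbp among them, and 1 of 4 called lower, Itga2b, a call lost without any one of normal replicates 1, 2, 4 and 6 or colorectal cancer replicates 1, 4 and 6 (adjusted p up to 0.108 by edgeR). The 13 T cell markers summed to 337 to 518 and 192 to 296, with 2 at 0 and 1 of 6 called lower, Cd3e (377 ± 71.3 and 195 ± 47.2 CPM), whose call was kept with each library left out. The 13 B cell markers (968 to 1483 and 1088 to 1201, 3 at 0, 0 of 7 called), 13 endothelial and fibroblast markers (57.9 to 99.5 and 50.8 to 85.1, 6 at 0, 0 of 3 called) and 13 intestinal epithelial markers (131 to 159 and 135 to 172, 8 at 0, 0 of 4 called) overlapped between the groups. In these last 3 lists edgeR gave 0 rows at an unadjusted p under 0.05 and DESeq2 called 0. Across these lists the background of calls is 2.02% in either direction, 0.565% higher and 1.45% lower. The labelled material, serum, should hold few intact blood cells, though the column header of the file counted as colorectal cancer replicate 6 carries the word Blood. The most abundant marker rows here were Gng11 (3381 ± 702 in normal and 2181 ± 533 CPM in colorectal cancer), Pax5 (725 ± 146 and 716 ± 37.8 CPM) and Itga2b (874 ± 178 and 379 ± 148 CPM). They are named for genes of platelets and B cells.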

How the data were processed

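Per the labels' protocols, serum RNA was isolated with TRIzol and sequenced as stranded total RNA libraries. The deposited files hold whole-number counts per gene symbol, 1 column per sample, taken as raw counts from the values. Trim Galore, HISAT2, StringTie and mm10 are named, per the submitters' processing notes; how reads were counted, and the strand setting used, are not given in the sources. All 53546 rows name a gene. The identical pair of files was counted once; the closest other pair differed in 12482 rows. Totals were 2889205 to 20774889 counts per library.

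Rows were filtered with filterByExpr by group, TMM-scaled and tested in R 4.3.3 by edgeR 4.0.16 (robust glmQLFit, then glmQLFTest), group as the only term, two-sided, Benjamini-Hochberg over 9565 rows at 0.05. SE is the log2 fold change over the root of the F statistic, and 95% intervals use the total degrees of freedom and are not adjusted. Exact and 100000-resample permutation tests used SciPy 1.17.1 and NumPy 2.4.6. Positions and exon lengths come from GENCODE M21, in which 49966 symbols have a single position. The procedure was tested on simulated data. Genes were named by a rule: the 4 genes, called list members or else the 2 most abundant, the 3 most alike rows, called or overlapping neighbours, and called or abundant markers, some of these given only within their counts or not reported here. The genes, lists and alternatives were chosen with earlier results of these data known; the ratios were added after seeing the values. Alternatives were DESeq2 size factors, DESeq2 1.42.0, other filters, Olfr648 left out, as covariate or as a selection, thinning, the replicate block, the repeated file kept, no robust estimation, and each library left out.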

Additional observations from a re-analysis of the deposited data

Results flagged for a closer look

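Abca1 in colorectal cancer replicate 4 stood far from the other 4 libraries of its group, at 336.7 TMM-scaled CPM against 184 to 222 (gap over range 0.751, against a limit of 0.71 for 5 samples). The count ratio Abca1/Tgfbr1 was set apart in the same library, at 1.656 against 0.942 to 1.12 (gap over range 0.746). Of the 20 sets of values looked at in this way 2 were marked, both from the same Abca1 count; chance marks about 1 set in 20.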

How the results depend on the processing

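The 4 genes kept their side of the edgeR threshold in every alternative apart from those named here. With DESeq2, Nr4a3 passed (-0.588); with Olfr648 left out and library totals alone, Klf4 (0.584) and Tgfbr1 (0.444) passed and Abca1 changed sign (0.165), beside the shift of all rows given with the scaling. Abca1 also changed sign among the 6 high-Olfr648 libraries (0.0185). The estimate of Tgfbr1, near 0 throughout, changed sign with the Olfr648 division as covariate (-0.000288) and with the replicate block (-0.0171), and ran from -0.0253 to 0.0813 with 1 library left out (under 0 without normal replicate 5 or colorectal cancer replicate 6). Nr4a3 ran from -0.674 to -0.505 and Klf4 from 0.0755 to 0.278 in that way, and Abca1 from -0.412 (without colorectal cancer replicate 4) to -0.162.

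Rows called higher and lower numbered 54 and 139. They were 162 and 238 with DESeq2, 13 and 68 with the Olfr648 covariate, and 34 and 27 in the 6 high-Olfr648 libraries. With the replicate block they were 6 and 59. Higher rows were 82 at a mean of 10 CPM or more, 1383 with totals alone and 112 with the repeated file kept. With 1 library left out higher rows ran from 16 to 67 and lower rows from 89 to 139. Leaving out colorectal cancer replicate 1, 2, 4 or 6 gave 16, 27, 20 or 16 higher rows, and leaving out normal replicate 2 or 6 gave 20 or 35; the 89 lower rows came with colorectal cancer replicate 4 left out. The labels tie same-numbered samples by the number alone. Over 5 pairs the correlation of their deviations was -0.0719 to 0.0255, none over 0.1, and 0 of 5 correlated best with its own number. So few pairs cannot show that same-numbered samples are unrelated, and the number of the library counted as colorectal cancer replicate 6 is itself uncertain. With the replicate block Nr4a3 stood at -0.67 (adjusted p = 0.286 by edgeR), and no call of the 4 genes changed.

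Of the correlations, Nr4a3/Abca1 went to -0.51 on deviations from the group means. With totals alone Klf4/Nr4a3 was -0.211, Nr4a3/Tgfbr1 -0.277, Nr4a3/Abca1 -0.53 and Tgfbr1/Abca1 0.207. With 1 library left out r ran from -0.194 to 0.388 for Klf4/Nr4a3, 0.643 to 0.911 for Klf4/Tgfbr1, -0.0403 to 0.57 for Nr4a3/Tgfbr1, -0.158 to 0.161 for Nr4a3/Abca1 and -0.403 to 0.0236 for Tgfbr1/Abca1. Among the 6 high-Olfr648 libraries, which cannot reach the threshold, the log2 difference was -0.884 for Nr4a3/Klf4 and -0.768 for Nr4a3/Tgfbr1. The causes of these changes were not tested. With 1 library left out the log2 difference ran from -0.847 to -0.589 for Nr4a3/Klf4 and from -0.695 to -0.483 for Nr4a3/Tgfbr1. Each stayed past the adjusted threshold of the exact permutation test. Groups without overlap must do so at these library numbers, so the passing adds no support. Depth limits Nr4a3 most, at 76 to 211 counts per library.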

Other observations

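Some rows outside the naming rule were noted after their values were seen, and none passed edgeR's test. Slc44a1, a choline transporter gene of the same stretch of chromosome 4, stood lower in all 5 colorectal cancer libraries than in all 6 normal ones (435 ± 95.3 and 309 ± 66.8 CPM; adjusted p = 0.214 by edgeR). Tmem38b, which encodes an intracellular cation channel, stood at 33.7 ± 13.6 and 59.8 ± 14.4 CPM (adjusted p = 0.188 by edgeR). Among the pathway genes, Tgfb1, which encodes a ligand of the receptor, stood at 14.1 ± 2.22 and 19.2 ± 2.68 CPM (adjusted p = 0.203 by edgeR), and Pmepa1, a TGF-beta target that restrains the pathway, at 7.81 ± 3.81 and 16.5 ± 6.58 CPM (adjusted p = 0.258 by edgeR). Lcat, which esterifies the cholesterol that Abca1 exports, stood at 2.92 ± 0.820 and 4.64 ± 0.836 CPM without overlap between the groups (adjusted p = 0.330 by edgeR), where 3.64% of all tested rows did not overlap.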
